A study of Mus musculus with 18 samples.

Results

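Interleukin 6 family cytokines signal through the shared receptor chain gp130 to the transcription factor STAT3, and 10 genes of this route were followed here through mouse retinal pigment epithelium (RPE). They are *Lif*, *Lifr*, *Osmr*, *Il6st*, *Jak1*, *Jak2*, *Stat3*, *Socs3*, *Bcl3* and *Lcn2*, found by symbol among the 52636 genes of the count table. They were chosen by their normalized levels in the libraries of all 6 groups, so that their values below are a description and carry no *P*-value. For comparison, 77 other genes of the same pathway were tested by role.

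RNA of RPE from C57BL/6 mice was sequenced in 18 libraries at postnatal day 14, with 3 libraries in each of 6 groups. Mice were left uninjected or received at birth, in both eyes, an AAV8 virus with the *Best1* promoter, which is active in the RPE. The virus carried GFP, nSREBP2 (the active nuclear form of SREBP2), a control hairpin against LacZ (ctrl sh), or one of the hairpins against *Lrp2* (*Lrp2* sh1 and *Lrp2* sh2). *Lrp2* encodes the endocytic receptor megalin, and the study asked which pathways both treatments share in enlarged eyes. Each library pooled the eyes of 1 mouse, and the RPE was loosened from the eyecup with papain after removal of the retina, so that neighbouring cells of the eyecup can be present.

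A cytokine such as LIF, oncostatin M or interleukin 6 brings gp130 together with a second receptor chain, and the Janus kinases bound to these chains phosphorylate STAT3. Phosphorylated STAT3 enters the nucleus and switches on genes that include its own inhibitor *Socs3*. In the eye this route is best known from retinal injury, where LIF acts on Müller glia and photoreceptors. RNA levels do not report phosphorylation.

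Total counts ran from 8921885 to 13696934 per library, so that 3 counts, the most that a count of 0 allows, came to 0.216 to 0.327 CPM (counts scaled to a common library size). *Srebf2*, the gene of SREBP2, was higher with nSREBP2 than with GFP (216 against 101 CPM, log2FC 1.104, SE 0.11, adjusted *P* = 0.000121, edgeR, Benjamini-Hochberg). *Lrp2* was lower with either hairpin than with ctrl sh (36.9 and 38.6 against 118 CPM). The RPE label was checked against 12 RPE genes, whose summed level was 5238 to 11570 CPM in uninjected and 3025 to 7287 CPM in injected libraries. This sum hides larger falls, because *Pmel* alone held 2595 to 2782 of the 3598 to 3712 CPM with GFP. *Rgr* was at 624 to 2135 CPM in uninjected and 11.4 to 27.4 CPM in GFP libraries, and *Ttr* at 786 to 2147 and 40.6 to 72.7 CPM. Of the 12 genes, 7 were lower with GFP than in uninjected libraries by the adjusted *P* (edgeR), and 0 with ctrl sh. The ctrl sh libraries were widely spread, however, and the median log2FC of the 12 genes against uninjected libraries was −0.97. *Rgr* was at 419, 31.8 and 33.05 CPM in the ctrl sh libraries, while *Ttr*, at 1133 to 1937 CPM, lay within the uninjected range. *Rpe65*, the isomerase of the visual cycle, was at 375 to 1129 CPM in the uninjected libraries, at 97.0 CPM in ctrl sh replicate 1 and at 44.0 CPM in *Lrp2* sh1 replicate 2. It was at or below 15.6 CPM in the other injected libraries, so that this defining marker was nearly absent from most of them. *Col1a1*, a fibroblast collagen, was at 7963 to 45380 CPM. Y-linked genes had 2770 to 3630 counts in the nSREBP2 libraries, in uninjected replicate 3 and in *Lrp2* sh2 replicates 2 and 3, and at most 10 counts elsewhere. Sex and nSREBP2 therefore cannot be told apart between the nSREBP2 and GFP libraries. Sample numbers were 1, 2 and 8 for uninjected and 3, 4 and 9 for nSREBP2 libraries. They were 16 to 18 for GFP, 13 to 15 for ctrl sh, 10 to 12 for *Lrp2* sh1 and 19 to 21 for *Lrp2* sh2. What these numbers mark is not given. The nSREBP2 and GFP libraries hold separate ranges, as do the ctrl sh, *Lrp2* sh1 and *Lrp2* sh2 libraries. Sample number and treatment therefore cannot be told apart in these comparisons either.

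**Figure D1:**
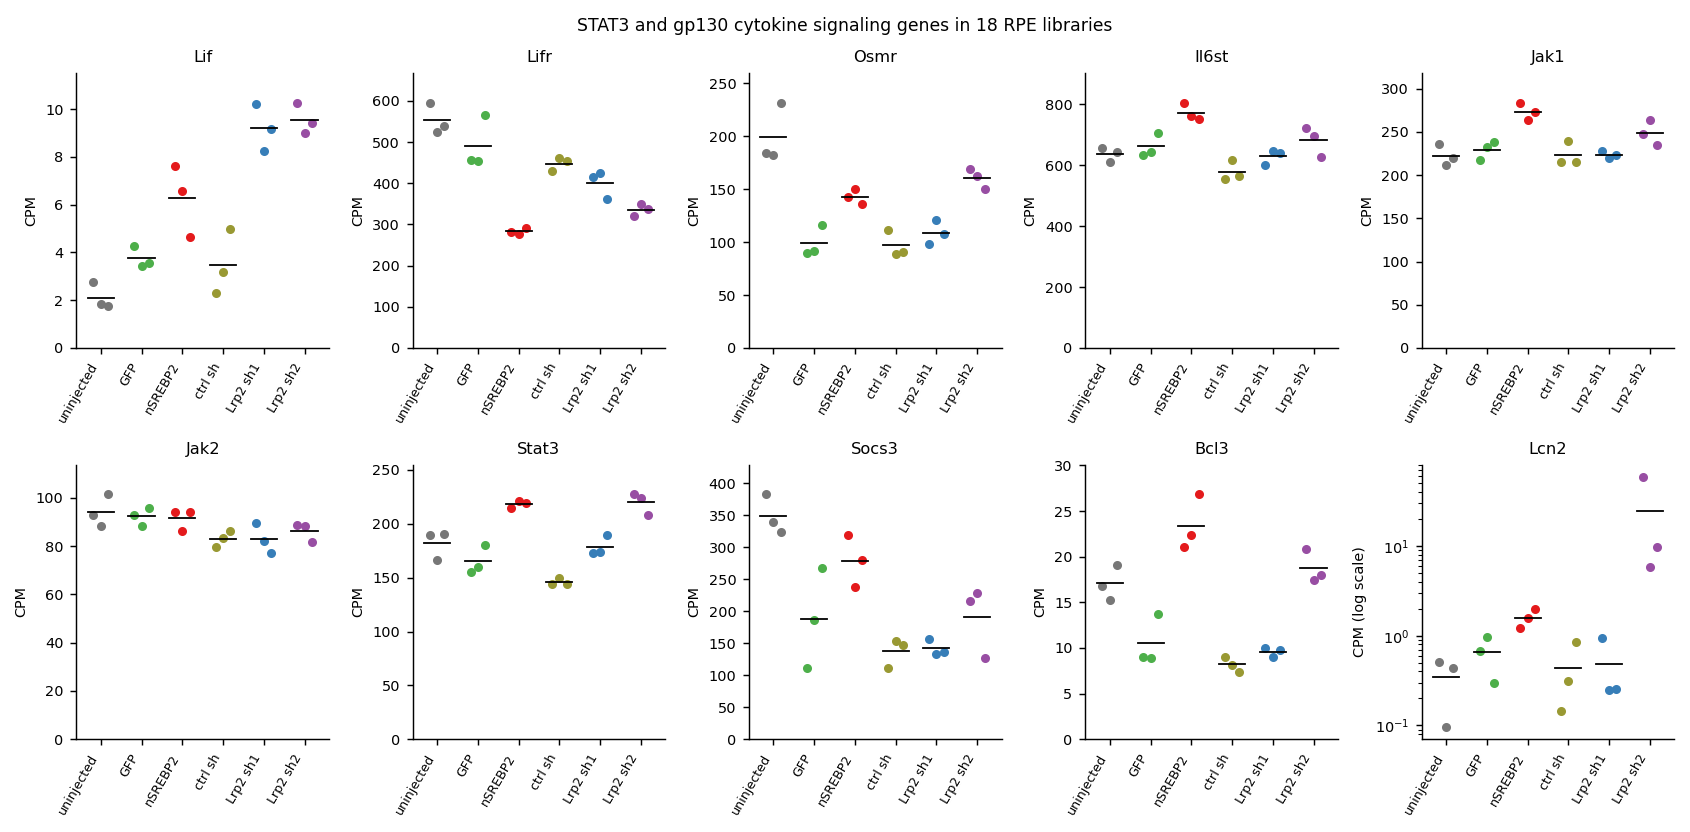
Level of each of the 10 genes in CPM (y axis, linear except for *Lcn2*, which is on a log scale) in the 18 libraries by group (x axis). Points are single libraries and bars are group means (n = 3). *Stat3* and *Lif* sit above their injected controls in every nSREBP2, *Lrp2* sh1 and *Lrp2* sh2 library, and *Lifr* sits below them. *Bcl3* sits above its injected controls in every nSREBP2 and *Lrp2* sh2 library.

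*Lif* encodes the cytokine LIF and lies on chromosome 11 of GRCm38 from 4257557 to 4272514. It was scarce everywhere. The nSREBP2 libraries had 7.63, 6.57 and 4.63 CPM, and the GFP libraries had 4.27, 3.45 and 3.54 CPM. In the ctrl sh libraries it was at 2.30, 3.20 and 4.97 CPM, against 10.2, 8.26 and 9.16 CPM with *Lrp2* sh1 and 10.3, 8.99 and 9.41 CPM with *Lrp2* sh2. All libraries of either hairpin lay above all 3 ctrl sh libraries. The log2FC was 0.75 (SE 0.23) for nSREBP2 versus GFP, 1.41 (SE 0.25) for *Lrp2* sh1 and 1.47 (SE 0.25) for *Lrp2* sh2, and the hairpins differed from each other by 0.06 (SE 0.14). The uninjected libraries, at 2.75, 1.84 and 1.75 CPM, had the lowest group mean and overlapped ctrl sh. Of the 9 members tested with *Lrp2* sh1, *Lif* had the highest log2FC.

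The receptor chains did not follow one pattern. *Lifr*, the chain that binds LIF (chromosome 15 from 7090614 to 7197489), was the gene with lower levels after treatment. It was at 283, 277 and 292 CPM with nSREBP2 and at 456, 453 and 565 CPM with GFP, a log2FC of −0.79 (SE 0.09). The ctrl sh libraries had 430, 461 and 454 CPM, the *Lrp2* sh1 libraries 416, 424 and 361 CPM and the *Lrp2* sh2 libraries 322, 349 and 337 CPM. The log2FC was −0.17 (SE 0.07) for *Lrp2* sh1 and −0.41 (SE 0.07) for *Lrp2* sh2, and neither hairpin group overlapped ctrl sh. The 3 genes whose levels followed *Lifr* most closely over the 18 libraries were *Nrp1* (r = 0.978), *Flt1* (r = 0.975) and *Ano1* (r = 0.973), by Pearson's r of log2(CPM + 0.5) among 15062 genes. Endothelial markers, of which *Flt1* is one, were lower in the same groups. Their 10 genes summed to 2267 to 2518 CPM with nSREBP2 and 2842 to 3644 CPM with GFP, and to 2077 to 2300 CPM with *Lrp2* sh2 and 3017 to 3181 CPM with ctrl sh. In these comparisons 7 and 8 of the 10 had an adjusted *P* under 0.05 and were lower. Their part in the *Lifr* values was not tested, and in bulk RNA fewer cells of a type and less RNA per cell cannot be told apart.

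*Osmr*, the chain for oncostatin M (chromosome 15 from 6813577 to 6874969), moved the other way. It was at 143, 150.2 and 136 CPM with nSREBP2 against 89.8, 91.7 and 116 CPM with GFP (log2FC 0.53, SE 0.10). With *Lrp2* sh2 it was at 169, 162 and 151 CPM, against 112, 89.1 and 90.8 CPM with ctrl sh (log2FC 0.73, SE 0.10). With *Lrp2* sh1 it was at 98.1, 121 and 108 CPM, which overlapped ctrl sh. The uninjected libraries, at 184, 183 and 232 CPM, stood above all others. *Il6st*, which encodes gp130 itself (chromosome 13 from 112464070 to 112510086), was at 752 to 805 CPM with nSREBP2 and at 635 to 707 CPM with GFP. Its log2FC was 0.23 (SE 0.07) for nSREBP2, 0.12 (SE 0.07) for *Lrp2* sh1 and 0.25 (SE 0.08) for *Lrp2* sh2, and its group means differed by at most 1.34-fold, against 1.95-fold for *Lifr* and 2.05-fold for *Osmr*.

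The kinases varied least. *Jak1* (chromosome 4 from 101152367 to 101265282) was at 264 to 284 CPM with nSREBP2 and at 218 to 239 CPM with GFP, a log2FC of 0.26 (SE 0.07), and between 212 and 264 CPM in the other 4 groups. *Jak2* (chromosome 19 from 29251828 to 29313080) stayed between 77.03 and 102 CPM in all 18 libraries. The group means of *Jak2* differed by at most 1.14-fold, and every pair of neighbours in their order overlapped. Per kilobase of exon, a scale on which genes can be compared, the ctrl sh means were 52.2 CPM for *Il6st*, 47.5 for *Socs3*, 41.6 for *Lifr*, 30.9 for *Jak1*, 16.5 for *Jak2*, 15.3 for *Stat3* and 8.03 for *Osmr*. On that scale *Bcl3* was at 3.31, *Lif* at 0.803 and *Lcn2* at 0.165 CPM. The ligand was thus present at a small share of the level of its receptor chains.

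*Stat3*, the transcription factor at the end of the route, lies on chromosome 11 from 100885098 to 100939540 (minus strand) and shares 72 exon bases with *Stat5a* on the opposite strand. It was at 215, 221 and 219.6 CPM with nSREBP2 and at 156, 160.3 and 180.1 CPM with GFP. The *Lrp2* sh2 libraries had 228, 224 and 208 CPM, the *Lrp2* sh1 libraries 173, 174 and 189.5 CPM and the ctrl sh libraries 145, 150.1 and 144 CPM. All libraries of the 3 treatments lay above those of their controls. The log2FC was 0.41 (SE 0.07) for nSREBP2, 0.29 (SE 0.06) for *Lrp2* sh1 and 0.60 (SE 0.06) for *Lrp2* sh2, or 1.33-fold, 1.22-fold and 1.52-fold. Uninjected libraries, at 166 to 190.2 CPM, were above ctrl sh and overlapped GFP. From lowest to highest, the group means ran ctrl sh, GFP, *Lrp2* sh1, uninjected, nSREBP2 and *Lrp2* sh2, and the last pair overlapped. *Tlr2*, a receptor of innate immune cells, followed *Stat3* most closely (r = 0.953). Macrophage and microglia markers (12 genes) were higher in part of the same libraries, at a summed 752 to 805 CPM with nSREBP2 against 435 to 511 CPM with GFP, and 500.2 to 635 CPM with *Lrp2* sh2 against 449 to 477 CPM with ctrl sh. With *Lrp2* sh1 the sum was 393 to 422 CPM, below ctrl sh, while *Stat3* was above it. The part of these markers in the *Stat3* values was not tested.

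*Socs3* encodes the inhibitor that STAT3 induces and that binds gp130 and the kinases (chromosome 11 from 117966079 to 117970047, minus strand). It was highest in the uninjected libraries, at 384, 339 and 325 CPM. The GFP libraries were widely spread, at 111, 186 and 268 CPM, and overlapped the nSREBP2 libraries at 319, 239 and 280.2 CPM (log2FC 0.57, SE 0.25). The ctrl sh libraries had 111, 153 and 148 CPM, the *Lrp2* sh1 libraries 157, 134 and 137 CPM and the *Lrp2* sh2 libraries 217, 229 and 127 CPM. The log2FC was 0.05 (SE 0.12) for *Lrp2* sh1 and 0.49 (SE 0.20) for *Lrp2* sh2, and both hairpin groups overlapped ctrl sh. Against uninjected libraries it was −0.90 (SE 0.26) for GFP and −1.36 (SE 0.13) for ctrl sh, and neither control overlapped them.

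*Bcl3*, an atypical IκB protein that joins NF-κB subunits on DNA, lies on chromosome 7 from 19808462 to 19822770 (minus strand), and 161 of its exon bases overlap *Gm16175* on the opposite strand. It was at 21.02, 22.3 and 26.9 CPM with nSREBP2 and at 9.06, 8.93 and 13.7 CPM with GFP. It was at 20.8, 17.4 and 17.99 CPM with *Lrp2* sh2, at 10.04, 9.001 and 9.76 CPM with *Lrp2* sh1 and at 9.06, 8.12 and 7.42 CPM with ctrl sh. The nSREBP2 and *Lrp2* sh2 libraries lay above their controls without overlap, whereas *Lrp2* sh1 overlapped ctrl sh. The log2FC was 1.15 (SE 0.18), 1.20 (SE 0.13) and 0.22 (SE 0.13) for nSREBP2, *Lrp2* sh2 and *Lrp2* sh1, and *Lrp2* sh2 exceeded *Lrp2* sh1 by 0.97 (SE 0.12). The genes most like *Bcl3* over the 18 libraries were *Relb* (r = 0.957), *Hk2* (r = 0.941) and *Nfkb2* (r = 0.939), and *Hk2* was also among the 3 most like *Stat3* (r = 0.935).

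*Stat3*, *Socs3* and *Bcl3* are shown with the bases that precede their RefSeq start, because STAT3 binds DNA directly, *Socs3* is its classical target, and *Stat3* and *Bcl3* were both higher with nSREBP2 and *Lrp2* sh2. Sequences are from RefSeq on GRCm38.p6, read 5′ to 3′ on the minus strand, and no annotated exon of the gene covers them. Bases that such an exon covers are left out, so that the *Socs3* and *Bcl3* stretches, of 165 and 235 bases, stop short of the start. Promoter windows of 300 bases, 250 before and 50 after the start, were searched on both strands for TTCNNNGAA, the core of the STAT binding motif, which reads alike on either strand. Capitals mark a match.
*Socs3*, chr11:117969452-117969616: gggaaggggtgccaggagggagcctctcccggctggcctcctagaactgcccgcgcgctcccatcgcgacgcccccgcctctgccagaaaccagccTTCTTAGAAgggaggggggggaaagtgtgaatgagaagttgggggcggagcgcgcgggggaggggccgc
*Stat3*, chr11:100939541-100939790: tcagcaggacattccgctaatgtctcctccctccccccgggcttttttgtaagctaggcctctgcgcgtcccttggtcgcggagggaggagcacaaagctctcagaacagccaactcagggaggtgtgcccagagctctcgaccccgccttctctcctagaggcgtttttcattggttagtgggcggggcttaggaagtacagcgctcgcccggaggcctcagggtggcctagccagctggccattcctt
*Bcl3*, chr7:19822771-19823005: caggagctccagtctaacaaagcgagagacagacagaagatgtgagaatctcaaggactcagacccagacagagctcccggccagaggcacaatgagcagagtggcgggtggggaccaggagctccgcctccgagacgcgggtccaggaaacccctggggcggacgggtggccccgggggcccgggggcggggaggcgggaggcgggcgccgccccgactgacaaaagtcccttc

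Only *Socs3* held a match among the 11 windows of the 10 genes. The windows of *Socs3*, *Osmr*, *Lcn2* and *Lifr* lie inside the annotated gene, so that sequence before a start further upstream was not searched. The match begins 154 bases before the start, at chr11:117969512-117969520. The motif is common, with 2726 of 32851 windows in the table holding it (8.298%), and the stricter TTCCNGGAA, a form of the same motif found in 1.148% of windows, was in none of the 11. A match is a string of letters in this window and does not show binding.

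*Lcn2* encodes lipocalin-2, a secreted iron-siderophore carrier of the acute phase response that megalin takes up from the kidney filtrate (chromosome 2 from 32384633 to 32388252, minus strand). Outside the *Lrp2* sh2 group it was barely detected, with 1 to 22 counts per library. The *Lrp2* sh2 libraries had 58.7, 5.88 and 9.66 CPM, against 0.144, 0.312 and 0.843 CPM with ctrl sh and 0.949, 0.248 and 0.255 CPM with *Lrp2* sh1. All 3 *Lrp2* sh2 libraries lay above all 15 others, with *Lrp2* sh2 replicate 1 far above the rest. The log2FC against ctrl sh was 5.87 (SE 1.087), and 4.19 without that library. The nSREBP2 libraries, at 1.21, 1.58 and 1.997 CPM, lay just above GFP at 0.684, 0.973 and 0.301 CPM (log2FC 1.31, SE 0.43). In a fit of all libraries with sex as a term the latter value became 3.92. Only the uninjected and *Lrp2* sh2 groups mix libraries with and without Y-linked counts, and *Lcn2* is near absent in uninjected libraries. The sex term for *Lcn2* thus leans on *Lrp2* sh2 replicate 1, which lacks these counts, and 3.92 is no reliable value corrected for sex.

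*Lrp2* sh2 replicate 1 also stood apart in other cell type markers. Its 16 rod genes summed to 971 CPM, against 532 and 546 CPM in the other replicates and 463 to 511 CPM in ctrl sh. Its macrophage and microglia genes summed to 635 CPM against 524 and 500.2 CPM. *Mmp9*, a protease that forms a complex with lipocalin-2, was at 5.81 CPM there and at 1.093 and 1.082 CPM in the others. The library lacks Y-linked counts, which the other *Lrp2* sh2 libraries hold. Markers of neutrophils, the classical source of lipocalin-2, were low, with at most 1 count of *Ly6g*. Their sum over 10 genes was highest in replicate 1 among the *Lrp2* sh2 libraries, at 8.05 CPM against 5.46 and 4.41 CPM. With ctrl sh it was 6.4 to 7.504 CPM. The part of these markers in the *Lcn2* values was not tested.

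**Figure D2:**
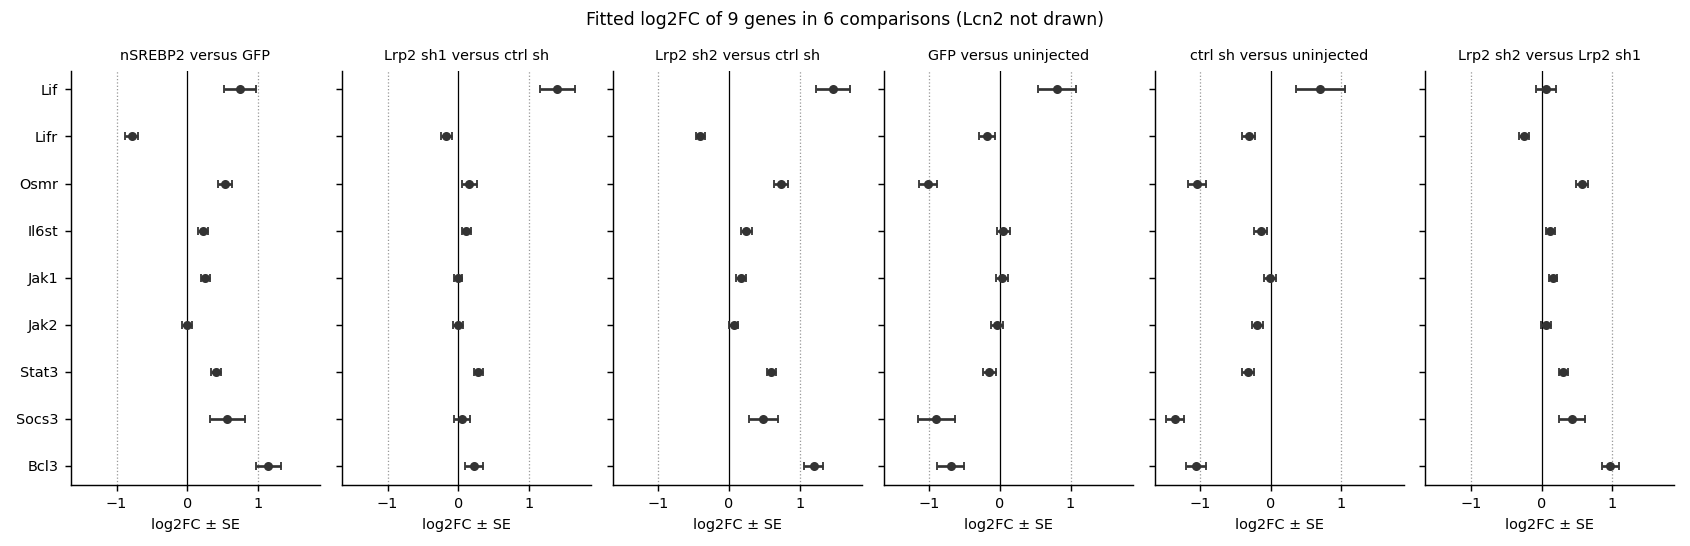
Fitted log2FC (x axis) of 9 genes (y axis) in 6 comparisons, with bars for 1 SE; dotted lines mark an absolute log2FC of 1, and *Lcn2* is not drawn. *Lif* lies to the right in both hairpin comparisons, *Bcl3* in nSREBP2 versus GFP and *Lrp2* sh2 versus ctrl sh, and *Socs3*, *Osmr* and *Bcl3* to the left in both controls against uninjected libraries.

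The members called, past an absolute log2FC of 1 and an adjusted *P* of 0.05, are counted beside the share of all genes tested, and nothing is read from these counts. For nSREBP2 versus GFP, *Bcl3* was called of the 10 tested, where 6.67% of genes were called. The adjusted *P* alone was passed by 7 members, 6 of them higher, against 21% of genes, and 8 members did not overlap, against 38.2%. For *Lrp2* sh1 versus ctrl sh, *Lif* was called of the 9 tested, against 0.994% of genes, 2 passed the adjusted *P* against 5.33%, and 3 did not overlap against 25.2%. The call of *Lif* was lost without *Lrp2* sh1 replicate 1. For *Lrp2* sh2 versus ctrl sh, *Lif*, *Bcl3* and *Lcn2* were called of 10, against 4.76% of genes. There 6 passed the adjusted *P* against 18.1%, and 7 did not overlap against 36.8%.

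*Lrp2* sh2 and *Lrp2* sh1 differ in hairpin, in sample number and in the balance of sexes but reached about the same *Lrp2* level. Between them *Lcn2* was called of 10 members, against 5.13% of genes. The adjusted *P* alone was passed by 5 members, against 22.4% of genes, and 6 did not overlap, against 39%. The median log2FC of the members was 0.47, 0.12 and 0.54 for nSREBP2, *Lrp2* sh1 and *Lrp2* sh2 against their controls, beside medians of −0.02, −0.01 and 0.01 over all genes tested. Both hairpin comparisons use the ctrl sh libraries as their control.

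Some members were lower in the injected controls than in the uninjected libraries. These groups differ in sample number as well as in injection, so that the 2 cannot be told apart. Against uninjected libraries, *Osmr* was called with GFP (log2FC −1.02, SE 0.13), of 9 members tested, and *Osmr* (−1.04, SE 0.13), *Socs3* and *Bcl3* (−1.06, SE 0.14) were called with ctrl sh. The share of genes called was 1.41% for GFP and 2.39% for ctrl sh. The adjusted *P* alone was passed by 1 and 4 members against 2.48% and 6.49% of genes, and 4 and 6 did not overlap against 25.6% and 31.8%. The *Osmr* call with GFP was lost without GFP replicate 1, GFP replicate 2 or uninjected replicate 3, and 1 member was called with ctrl sh without uninjected replicate 3 or ctrl sh replicate 3. The 14 immediate early genes moved alongside, at a summed 6631 to 8093 CPM in uninjected, 3010 to 5025 CPM in GFP and 3306 to 5119 CPM in ctrl sh libraries. Of them 6 with GFP and 9 with ctrl sh were lower at an adjusted *P* under 0.05. *Egr2*, one of these genes, was among the 3 most like *Socs3* over the 18 libraries, with *Zfp36l2* and *Rgs16* (r = 0.945 for each). The part of these genes in the *Socs3* and *Bcl3* values was not tested.

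The other genes of the pathway were tested next. In nSREBP2 versus GFP, 9 of the 70 tested rose and 1 fell past both thresholds, where 4.71% of all genes rose and 1.96% fell. The gene that fell was *Lrp2* (log2FC −2.18, SE 0.24, adjusted *P* = 0.000233, edgeR), listed here as a partner of lipocalin-2. *Serpina3n*, an acute phase protease inhibitor and STAT3 target, rose most. It was at 317, 204 and 223 CPM with nSREBP2 and at 18.9, 17.2 and 10.7 CPM with GFP (log2FC 4.001, SE 0.22, adjusted *P* = 5.24e-06, edgeR). The STAT3 targets *Timp1* (log2FC 1.54, adjusted *P* = 8.5e-05), *Pim1* (1.13, adjusted *P* = 0.00117) and *Myc* (1.13, adjusted *P* = 0.00309) rose as well. Of the 20 targets tested, 7 rose and 2 fell by the adjusted *P* alone, where 12.6% of all genes rose and 8.47% fell. Both ligands called were cytokines that use gp130, *Il6* (log2FC 1.78, SE 0.42, adjusted *P* = 0.0151) and *Osm* (1.45, SE 0.28, adjusted *P* = 0.00562), although they stayed below 10 CPM. *Il6* was not called without GFP replicate 2 or nSREBP2 replicate 1 (adjusted *P* = 0.0703 and 0.0505), *Myc* not without GFP replicate 1 or 2, and *Pim1* not without GFP replicate 1. With sex as a term the calls of *Il6*, *Osm* and *Myc* were lost (log2FC 1.69, 1.35 and 0.73, adjusted *P* = 0.162, 0.0611 and 0.0815, edgeR). Against the uninjected libraries in place of GFP, the log2FC was 0.89 for *Il6* (adjusted *P* = 0.119), 0.18 for *Osm* (0.637), 0.43 for *Pim1* (0.0412) and 0.61 for *Myc* (0.0153), so that these 4 were not called.

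Receptors called in that comparison were *Csf3r*, the granulocyte colony-stimulating factor receptor (log2FC 2.18, adjusted *P* = 5.85e-05), and *Il10ra*, the interleukin 10 receptor chain (1.30, adjusted *P* = 0.000746, and 0.98 against uninjected libraries). *Mmp9* also rose (log2FC 1.56, adjusted *P* = 0.00207). Of the 15 inhibitors 5 passed the adjusted *P*, against 21% of all genes. *Socs2*, *Ptpn1* and *Ptpn6* were higher (log2FC 0.40, 0.42 and 0.53) and *Pias1* and *Pias2* lower (−0.24 and −0.26). These 5 were named after their values were seen. Macrophage and microglia markers were higher in the same libraries, with 11 of 12 past the adjusted *P*. *Csf3r* and *Il10ra* are also made by myeloid cells. Neutrophil markers (10 genes) were low but summed to 10.7 to 14.5 CPM with nSREBP2 against 5.04 to 8.73 CPM with GFP. Only 2 of them had enough counts to be tested, and both were higher by the adjusted *P* (edgeR). Rod markers summed to 755 to 934 CPM against 445 to 850.3 CPM, with 5 of 16 higher. *Gnb1* alone held 403.5 to 457.5 CPM and 391 to 480 CPM of these sums, and the median log2FC of the 16 genes was 1.25. Fibroblast markers summed to 72000 to 86140 CPM against 35190 to 44570 CPM, with 8 of 10 higher. The part of these markers in the calls was not tested.

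**Figure D3:**
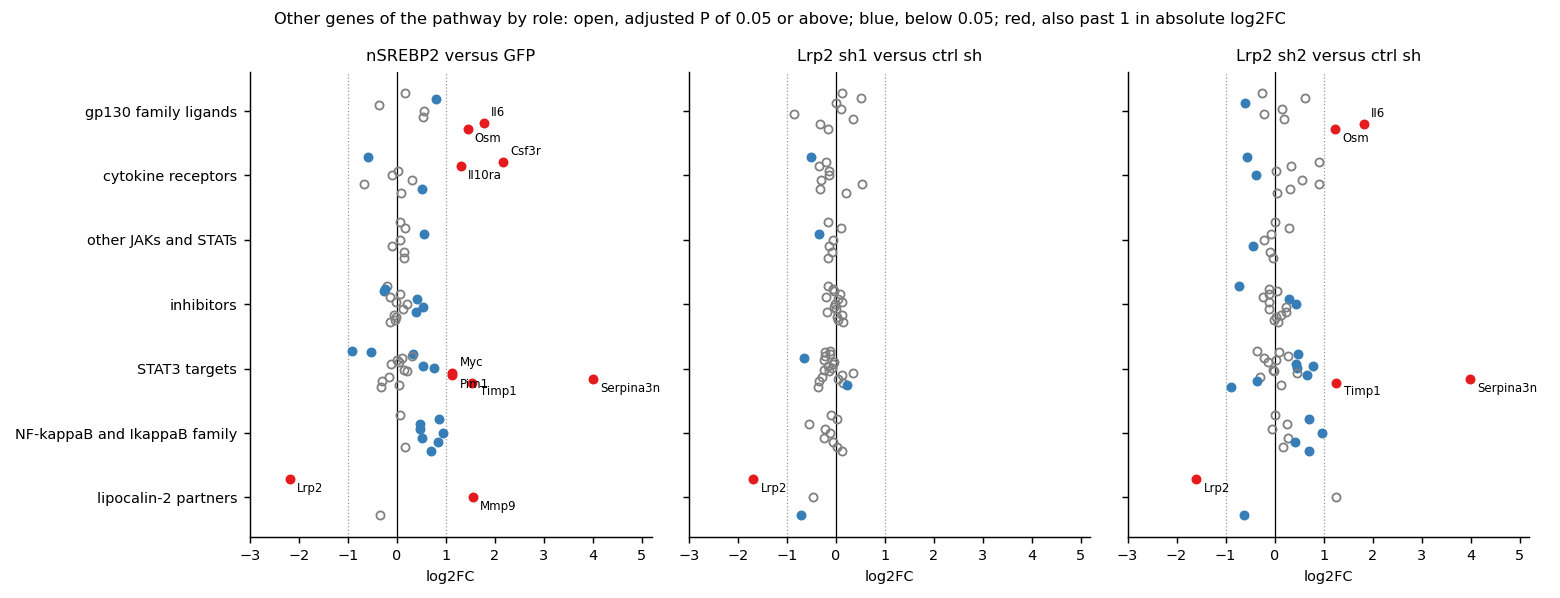
Fitted log2FC (x axis) of the tested other genes of the pathway by role (y axis) in 3 comparisons. Open points have an adjusted *P* of 0.05 or above, blue points pass it, and red points, which are named, also exceed an absolute log2FC of 1. *Serpina3n* lies near 4 with nSREBP2 and *Lrp2* sh2, and *Lrp2* is the one red point with *Lrp2* sh1.

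With *Lrp2* sh1, 1 of the 71 genes tested was called, against 0.994% of all genes, and it was *Lrp2* itself (log2FC −1.68, SE 0.22, adjusted *P* = 0.00328, edgeR). By the adjusted *P* alone 1 gene rose and 5 fell (8.451% of the 71, against 5.33% of all genes). Among the latter were *Slc22a17*, which encodes a lipocalin-2 receptor (log2FC −0.70, SE 0.08, adjusted *P* = 0.00186), and *Cebpd*, an acute phase transcription factor (−0.65, SE 0.15, adjusted *P* = 0.0388). *Serpina3n* was at 18.8, 16.7 and 22.8 CPM, within the 14.7 to 25.1 CPM of ctrl sh. *Slc22a17* was at 66.2 to 72.5 CPM with *Lrp2* sh1 and 68.0 to 76.9 CPM with *Lrp2* sh2, and both groups lay below the 99.9 to 125 CPM of ctrl sh. Uninjected libraries, however, reached down to 62.6 CPM.

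With *Lrp2* sh2, 4 of 71 genes rose and *Lrp2* fell (log2FC −1.60, SE 0.21, adjusted *P* = 0.00109, edgeR). Of all genes 2.98% rose and 1.78% fell past both thresholds. *Serpina3n* was at 576, 144 and 171 CPM (log2FC 3.995, SE 0.53, adjusted *P* = 0.00101), and 3.08 without replicate 1. *Timp1*, an inhibitor of matrix proteases, was at 16.7, 11.9 and 11.9 CPM against 3.31, 6.48 and 7.34 CPM (log2FC 1.26, SE 0.27, adjusted *P* = 0.0105). *Il6* rose by 1.82 (SE 0.45, adjusted *P* = 0.0215) and *Osm* by 1.24 (SE 0.27, adjusted *P* = 0.0113) on the log2 scale. *Pim1* rose by 0.67 (SE 0.13, adjusted *P* = 0.00816) and so did not reach the threshold on log2FC. The call of *Il6* was lost without ctrl sh replicate 1 or 2 or *Lrp2* sh2 replicate 1 or 2 (adjusted *P* = 0.0531, 0.075, 0.0759 and 0.0651), that of *Osm* without ctrl sh replicate 3 (0.0501) and that of *Timp1* without ctrl sh replicate 1 (log2FC 0.97). The count of genes called was 3 without ctrl sh replicate 1. With sex as a term *Il6* and *Osm* were not called (adjusted *P* = 0.0702 and 0.0518), and *Il6* was also lost with the replicate number as a block (0.0744). Against the uninjected libraries in place of ctrl sh, the log2FC of *Il6* was 0.36 (adjusted *P* = 0.592) and that of *Osm* was −0.34. Rod markers were higher in these libraries, with 11 of 16 past the adjusted *P*, and 6 of 12 RPE markers were lower, whose part in the calls was not tested.

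The NF-κB and IκB family, the partners of *Bcl3*, showed smaller shifts in one direction. With nSREBP2, 7 of its 9 genes rose by the adjusted *P*, with a median log2FC of 0.52 over the 9, where 12.6% of all genes rose and the median was −0.02. With *Lrp2* sh2, 4 rose, with a median of 0.27, where 8.59% of all genes rose. With *Lrp2* sh1 the lowest adjusted *P* was 0.106 (*Nfkbia*, log2FC −0.54), 2 genes had an unadjusted *P* under 0.05, and the median was −0.10. *Nfkb2*, which encodes the p52 precursor, was at 68.0, 73.0 and 68.2 CPM with nSREBP2 against 33.6, 40.4 and 41.4 CPM with GFP (log2FC 0.86, SE 0.09, adjusted *P* = 0.000155, edgeR). It was at 64.3, 59.9 and 55.6 CPM with *Lrp2* sh2 against 37.5, 36.0 and 37.4 CPM with ctrl sh (log2FC 0.71, SE 0.07, adjusted *P* = 0.000351). *Nfkbie*, an inhibitory member, rose by 0.94 and 0.97 in these comparisons (SE 0.11 and 0.16). *Nfkbie* was picked after its values were seen, and 830 exon bases of *Nfkb2* overlap genes on the opposite strand. Macrophage and microglia markers were higher as well, with 11 of 12 past the adjusted *P* and a median log2FC of 0.98 with nSREBP2, and 2 of 12 and a median of 0.28 with *Lrp2* sh2. Their part in the NF-κB values was not tested.

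**Figure D4:**
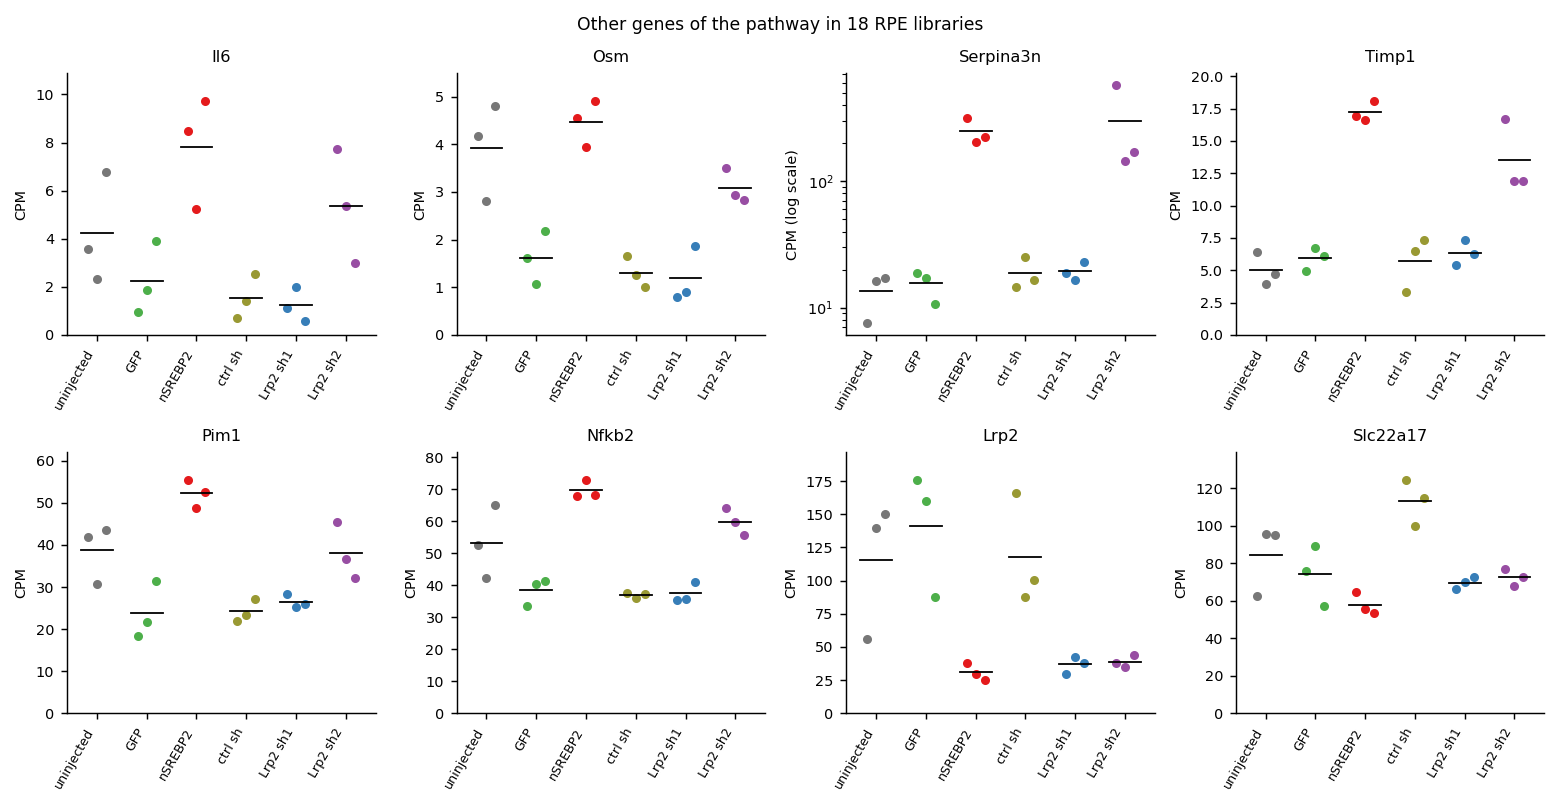
Level in CPM (y axis, log scale for *Serpina3n*) of 8 other genes of the pathway in the 18 libraries by group (x axis), with points for libraries and bars for group means (n = 3). *Serpina3n* is at 144 CPM or more in the nSREBP2 and *Lrp2* sh2 libraries and at 25.1 CPM or less in all others, while *Lrp2* is low in all 3 treated groups.

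The hairpins were then compared directly, since they lowered *Lrp2* about alike (log2FC 0.08, SE 0.13, adjusted *P* = 0.728, *Lrp2* sh2 versus *Lrp2* sh1, edgeR). Sex is unbalanced here, as *Lrp2* sh2 replicates 2 and 3 had 3630 and 3625 Y-linked counts and the *Lrp2* sh1 libraries at most 10. The sample numbers of these groups differ as well. Of 70 genes, 5 were called, all higher with *Lrp2* sh2, where 3.32% of all genes were called higher and 1.81% lower. They were *Serpina3n* (log2FC 3.94, SE 0.50, adjusted *P* = 0.000436), *Il6* (2.13, SE 0.43, adjusted *P* = 0.0064), *Osm* (1.39, SE 0.33, adjusted *P* = 0.0135), *Timp1* (1.103, SE 0.18, adjusted *P* = 0.00198) and *Nfkbie* (1.08, SE 0.15, adjusted *P* = 0.000848). By the adjusted *P* alone 24 rose and 6 fell, where 10.2% of all genes rose and 12.3% fell. The count of genes called was 3 without *Lrp2* sh2 replicate 1 and 8 without *Lrp2* sh2 replicate 3. Macrophage and microglia markers also differed, with 9 of 12 higher at a summed 500.2 to 635 CPM against 393 to 422 CPM with *Lrp2* sh1, and 9 of 10 endothelial markers were lower. Rod markers were higher for 11 of 16 genes (median log2FC 2.81), and RPE markers were lower for 7 of 12 (median −1.21). Their part was not tested.

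The injected controls differed from uninjected libraries in the same pathway. With ctrl sh, 4 of 70 genes fell past both thresholds, against 1.51% of all genes. They were *Osm* (log2FC −1.58, adjusted *P* = 0.025), *Il31ra* (−2.08, adjusted *P* = 0.0208), *Junb* (−1.20, adjusted *P* = 0.0134) and *Nfkbiz* (−1.01, adjusted *P* = 0.0376), all by edgeR. The count of genes called was 7 without uninjected replicate 2 and 0 without ctrl sh replicate 2. With GFP, 0 of 69 were called by edgeR or DESeq2, although 20 had an unadjusted *P* under 0.05, and 4 were called without GFP replicate 3. *Osm* was at 4.18, 2.80 and 4.80 CPM in uninjected libraries, a range that overlaps the 3.94 to 4.90 CPM of nSREBP2. *Serpina3n* and *Timp1* did not share this, as the uninjected libraries held 7.55 to 17.1 and 3.96 to 6.43 CPM.

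**Figure D5:**
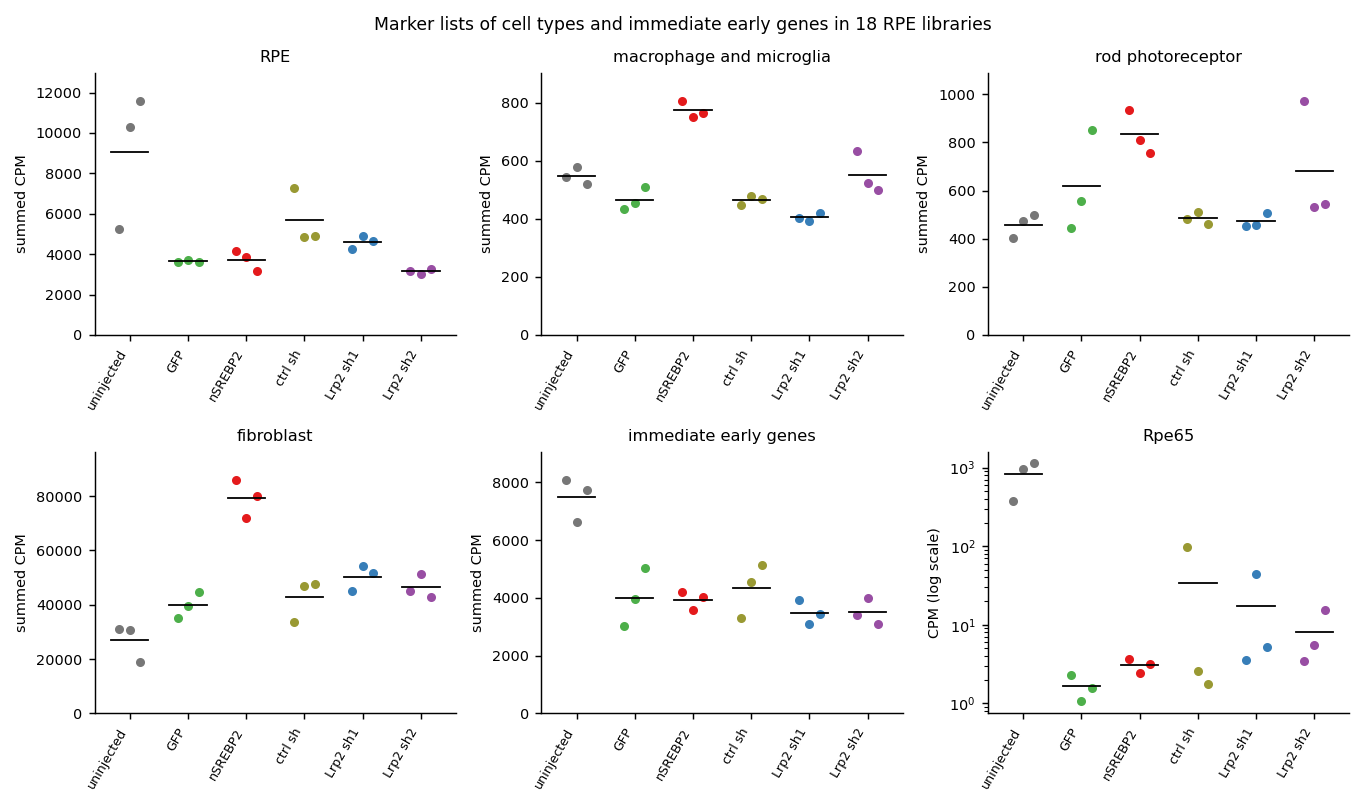
Summed CPM (y axis) of the marker lists for RPE, macrophages and microglia, rods, fibroblasts and immediate early genes, and CPM of *Rpe65* on a log scale, in the 18 libraries by group (x axis). Points are libraries and bars are group means (n = 3). Macrophage and fibroblast sums are highest with nSREBP2, immediate early genes and *Rpe65* are highest in uninjected libraries, and the rod sum reaches 971 CPM in 1 *Lrp2* sh2 library.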

How the data were processed

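The authors deposited raw counts of reads for each gene, in whole numbers, after mapping with STAR to GRCm38. Annotation and strand settings of the counting are not given in the sources used here, so genes with overlapping exons have uncertain counts. Positions and exon lengths came from GENCODE M21, which held 52403 of the 52636 identifiers with versions ignored. Each pair of groups was fitted on all genes by the quasi-likelihood test of edgeR 4.0.16 (R 4.3.3, genes kept by filterByExpr, TMM factors), with Benjamini-Hochberg adjustment over every gene tested. CPM used TMM factors over all 18 libraries. The SE is the absolute log2FC over the square root of F. Depth was 8921885 to 13696934 counts, and limits from 3 counts cover counting error only. Replicates were distinct (lowest chi-square per degree of freedom 3.298, GFP replicates 1 and 2).

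Members and lists were chosen with earlier results of these data known. Named genes are the members, *Lrp2*, *Srebf2*, the 3 genes most correlated with a member (1 is not reported here), and pathway genes called in the comparisons with GFP or ctrl sh or of the 3 largest changes past the adjusted *P* there. Scripts were tested on simulated data. Alternatives were DESeq2 1.42.0, its size factors, other filters, joint fits of all libraries with and without sex (from Y-linked counts), a replicate block, the adjusted *P* alone, each library left out and, chosen after seeing the data, uninjected libraries as the control. The sex term is set by the uninjected and *Lrp2* sh2 groups alone, as every other group is of 1 sex.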

Additional observations from a re-analysis of the deposited data

Results flagged for a closer look

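The effect of nSREBP2 (against GFP) and that of *Lrp2* sh1 (against ctrl sh) differed for 6 of the 12 named pathway genes, by an interaction term fitted to all 18 libraries with edgeR and adjusted over 19744 genes, of which 9.75% passed. The 12 were named for their change in the same comparisons, most of them in nSREBP2 versus GFP, so that this count is not independent evidence of a difference. The difference in log2FC was 3.94 for *Serpina3n* (adjusted *P* = 0.000674), 2.36 for *Csf3r* (0.013), 1.65 for *Il10ra* (0.0021), 1.59 for *Osm* (0.0383), 1.38 for *Timp1* (0.0145) and 0.996 for *Pim1* (0.013).

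*Lrp2* sh2 and *Lrp2* sh1, compared directly, differed for 7 of the 12, where 22.4% of all genes passed the adjusted *P*, and the same limit holds for genes named in *Lrp2* sh2 versus ctrl sh. The log2FC of *Lrp2* sh2 versus *Lrp2* sh1 was 3.94 for *Serpina3n* (adjusted *P* = 0.000436), 2.13 for *Il6* (0.0064), 1.39 for *Osm* (0.0135), 1.103 for *Timp1* (0.00198), 0.67 for *Il10ra* (0.0416), 0.53 for *Pim1* (0.0103) and 0.43 for *Cebpd* (0.0313).

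The effects of nSREBP2 and *Lrp2* sh2 differed for 0 of the 12 at an adjusted *P* under 0.05 by edgeR, and DESeq2 was not run for this difference, which 5.63% of all genes passed. An unadjusted *P* under 0.05 was reached by *Csf3r* (difference 1.28, SE 0.55), *Il10ra* (0.98, SE 0.30) and *Myc* (0.69, SE 0.28), which were all larger with nSREBP2. For *Serpina3n* the difference was 0.01 (SE 0.58), so that these data leave room for effects that differ.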

How the results depend on the processing

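The direction of the log2FCs of *Stat3*, *Lif*, *Lifr*, *Osmr*, *Il6st* and *Bcl3* in the 3 comparisons of the study, and of *Lcn2* with nSREBP2 and *Lrp2* sh2, stayed the same in all 13 alternatives other than the uninjected control (12 for *Lcn2*, which a filter of 10 counts in every library removes), whereas *Jak2* with nSREBP2 or *Lrp2* sh1, *Jak1* with *Lrp2* sh1 and *Socs3* with *Lrp2* sh1 took both signs. *Lcn2* ranged from 0.95 to 3.92 with nSREBP2, highest with sex as a term, and from 4.19 to 6.92 with *Lrp2* sh2, lowest without *Lrp2* sh2 replicate 1. DESeq2 and its size factors moved no count of calls by over 1.5 times.

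Counts of members called, then of other pathway genes called, were as follows. With the adjusted *P* alone they were 7 and 31 for nSREBP2, 2 and 6 for *Lrp2* sh1, 6 and 24 for *Lrp2* sh2 and 5 and 30 for *Lrp2* sh2 versus *Lrp2* sh1, and 16 other genes for ctrl sh versus uninjected. Against uninjected libraries they were 2 and 6 for nSREBP2 and 2 and 10 for *Lrp2* sh1, and 8 other genes for *Lrp2* sh2, where *Osm* (−0.34) and *Pim1* (−0.027) changed sign. With sex as a term 2 members were called for nSREBP2, and for GFP versus uninjected 0 members and 2 other genes. Without a filter 2 other genes were called for GFP versus uninjected and 8 for *Lrp2* sh2 versus *Lrp2* sh1, the fit of all libraries gave 2 for GFP versus uninjected, and 10 counts in every library left 0 members for *Lrp2* sh2 versus *Lrp2* sh1.

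Leaving out each library gave 1 to 1 members and 8 to 13 other genes for nSREBP2, 0 to 1 and 1 to 1 for *Lrp2* sh1, 3 to 3 and 3 to 6 for *Lrp2* sh2, 0 to 2 and 0 to 4 for GFP versus uninjected, 1 to 3 and 0 to 7 for ctrl sh versus uninjected, and 1 to 2 and 3 to 8 for *Lrp2* sh2 versus *Lrp2* sh1. The cause of these shifts was not tested. The replicate numbers share only a number: in no comparison did all 3 same-numbered pairs deviate together (correlations of −0.372 to 0.366). With the replicate number as a block, 1 other gene was called for GFP versus uninjected and 1 for ctrl sh versus uninjected, against 0 and 4, *Il6* was no longer called with *Lrp2* sh2 (adjusted *P* = 0.0744, edgeR), and the other counts of calls stayed within 1.5 times.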

Other observations

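Genes whose level followed a member most closely over the 18 libraries, by Pearson's r of log2(CPM + 0.5) among 15062 genes, are given here for the members not yet described in this way. The points share libraries and groups, so that r describes these libraries and carries no *P*-value. *Lif* was followed by *Phlda3* (r = 0.932), *Ddias* (r = 0.931) and *Slc6a8* (r = 0.918). *Osmr* had lower values, with *Sphk1* at 0.877, *Sbno2* at 0.864 and *Gm16174* at 0.851. *Il6st* was followed by *Doc2b* (r = 0.951), *Tnfrsf1b*, which encodes a receptor of tumour necrosis factor (r = 0.914), and *Tcf24* (r = 0.914). *Jak1* was followed by *Edem1* (r = 0.953), *Lhfp* (r = 0.936) and *Fblim1* (r = 0.927), and *Jak2* by *Phlda1* (r = 0.876) and *Mfsd7b* (r = 0.871). *Lcn2*, whose values rest on a single group, was followed by *Foxj1* (r = 0.912), *Tmem176a* (r = 0.905) and *Chrnb1* (r = 0.899). *Vmp1* (r = 0.942) came after *Tlr2* for *Stat3*.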
